A study of Homo sapiens with 4 samples.

Results

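This report describes 44 genes of cell adhesion and extracellular matrix, chosen by their symbols and found as 44 of the 35606 genes in the deposited count table. They are 23 integrin subunits, which are matrix receptors, and 21 matrix genes, which encode laminin chains, basement membrane proteins and other matrix glycoproteins. Their RNA was compared between K562 cells that the labels give as JAZF1-SUZ12 expressing and mock K562 cells. K562 is an established human chronic myelogenous leukaemia line that grows in suspension and has erythroid features. JAZF1-SUZ12 is the fusion found in endometrial stromal sarcoma, and it joins JAZF1 to SUZ12, a core subunit of Polycomb repressive complex 2. Each group had 2 poly(A)-selected libraries, numbered 1 and 2. The vector, the promoter that drives the fusion, whether the cells are a clone, and the time after its introduction are not given in the sources used here. Nothing says that the libraries came from separate cultures, so p-values measure only the spread between these libraries, which may be technical.

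Integrins are cell surface receptors made of 1 alpha and 1 beta subunit. They bind matrix proteins outside the cell and link them through talin and kindlin to the actin skeleton inside it. Laminins are trimers of 1 alpha, 1 beta and 1 gamma chain, and with nidogens, perlecan (HSPG2) and agrin (AGRN) they build the basement membrane. Fibronectin (FN1) is a ligand of several integrins, and the pair of ITGA5 with ITGB1 is known as the main fibronectin receptor of K562 cells.

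The libraries held between 17260936 and 24423028 estimated counts, of which the 44 genes took 0.129% and 0.132% in the mock and 0.146% and 0.153% in the JAZF1-SUZ12 libraries. As a check of the labels, JAZF1 was at 0.587 and 1.27 CPM (counts per 1000000 counts of the library) in mock and at 33.3 and 29.9 CPM in JAZF1-SUZ12 libraries. Its log2 fold change was 5.05 ± 0.20 (SE; edgeR quasi-likelihood test, adjusted p = 1.07e-10), and 5.70 without mock replicate 2. SUZ12 rose by 1.01 ± 0.048 on the log2 scale (SE; edgeR, adjusted p = 1.15e-09). The labels name the uterus as the source of the K562 samples. Of 9 erythroid markers the summed level was between 11150 and 11505 CPM in mock and between 13149 and 13286 CPM in JAZF1-SUZ12 libraries. Of 9 stromal markers the sum was 25.7 and 22.9 CPM in mock and 38.8 and 41.8 CPM in JAZF1-SUZ12 libraries. Most of that sum was MME, at 19.8 and 19.1 against 32.4 and 34.5 CPM. PDGFRB was called higher as well, at 19 and 4 counts in mock and 41 and 32 in JAZF1-SUZ12 libraries (edgeR, adjusted p = 0.0457). ESR1, at 4 and 4 against 14 and 11 counts, did not pass the filter. COL1A2, at 65 and 54 against 39 and 114 counts, and DCN were not called. LUM had 0 counts in all 4 libraries, COL3A1 at most 3, and PDGFRA and THY1 at most 6. The sum of 4 epithelial markers, mostly EPCAM, was lower, at 62.4 and 58.7 against 54.5 and 49.3 CPM. That of 6 lymphoid and myeloid markers, mostly LYZ, was also lower, at 40.1 and 34.9 against 27.9 and 28.8 CPM. EPCAM and LYZ were called lower (edgeR, adjusted p = 0.0175 and 6.92e-04). The sum of 4 endothelial markers was at most 0.832 CPM. The part of these markers in the changes of the 44 genes was not tested.

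The promoter windows of 4 of the genes are shown because the first 3 belong to matrix genes that rose more than 2-fold, and the last to ITGB1, the most abundant of the 44 genes, which was not called. Each runs from 250 bases before to 50 bases after a RefSeq transcription start on GRCh38.p14, 5′ to 3′ on the gene's own strand, with CG dinucleotides in capitals. The windows are FN1 at chr2:215436019-215436318 (minus strand), LAMC1 at chr1:183023170-183023469 (plus strand), NID2 at chr14:52069010-52069309 (minus strand) and ITGB1 at chr10:32958181-32958480 (minus strand).
FN1: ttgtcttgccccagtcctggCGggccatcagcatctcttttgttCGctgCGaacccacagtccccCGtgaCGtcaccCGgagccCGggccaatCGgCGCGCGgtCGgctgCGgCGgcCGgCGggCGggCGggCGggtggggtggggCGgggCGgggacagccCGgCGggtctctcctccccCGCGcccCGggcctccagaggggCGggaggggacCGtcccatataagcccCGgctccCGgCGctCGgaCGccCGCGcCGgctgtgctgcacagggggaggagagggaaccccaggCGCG
LAMC1: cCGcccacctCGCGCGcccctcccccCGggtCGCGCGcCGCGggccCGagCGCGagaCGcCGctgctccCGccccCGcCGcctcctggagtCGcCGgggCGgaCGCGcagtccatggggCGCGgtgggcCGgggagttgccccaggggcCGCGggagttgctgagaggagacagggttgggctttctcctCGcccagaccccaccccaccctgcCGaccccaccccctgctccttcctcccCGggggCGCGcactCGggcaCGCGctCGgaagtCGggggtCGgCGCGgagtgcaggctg
NID2: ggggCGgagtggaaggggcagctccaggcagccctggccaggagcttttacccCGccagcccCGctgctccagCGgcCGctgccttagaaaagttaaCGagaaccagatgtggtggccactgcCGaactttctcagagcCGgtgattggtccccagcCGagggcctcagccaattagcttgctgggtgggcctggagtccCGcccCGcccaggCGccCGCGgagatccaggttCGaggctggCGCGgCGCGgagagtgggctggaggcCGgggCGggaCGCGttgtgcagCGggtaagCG
ITGB1: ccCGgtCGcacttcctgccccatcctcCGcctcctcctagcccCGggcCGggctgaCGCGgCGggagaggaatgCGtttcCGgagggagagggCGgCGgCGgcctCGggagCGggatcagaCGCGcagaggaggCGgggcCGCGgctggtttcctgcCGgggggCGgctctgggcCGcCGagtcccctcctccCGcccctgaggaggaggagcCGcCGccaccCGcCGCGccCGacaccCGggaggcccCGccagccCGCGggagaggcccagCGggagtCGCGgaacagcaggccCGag
The FN1 window held 38 CG dinucleotides, more than 90.1% of all 35116 windows of this length. The LAMC1 window held 41, the NID2 window 25 and the ITGB1 window shown 39. The number in that ITGB1 window was close to those of FN1 and LAMC1. ITGB1 was not called, and a link between CG dinucleotides and calls was not tested. The other ITGB1 window, at chr10:32935509-32935808, held 4.

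A gene was called when its adjusted p in edgeR's quasi-likelihood test was under 0.05, with Benjamini-Hochberg adjustment across the 14750 tested genes. Of the 44 genes, 35 passed the filter on low counts and were tested. In the JAZF1-SUZ12 libraries 13 of these 35 were called higher, against a background of 13.3% of all genes tested, and 0 were called lower, against a background of 11.4%. A rise of at least 2-fold was called for 9 of the 35, against 5.55% of all genes tested, but 8 of these 9 had a mean under 10 CPM, where the share over all genes was 14.1%. At an unadjusted p under 0.05, 0 of the 35 were lower by edgeR, and DESeq2 also called 0 lower. Among the receptors 6 of 19 tested genes rose (31.6%), and among the matrix genes 7 of 16 rose (43.8%). The median log2 fold change was 0.47 over the tested receptors and 0.67 over the tested matrix genes, beside 0.0032 over all genes tested. Of these medians, that of the receptors was 0.29 without JAZF1-SUZ12 replicate 2, and with a mean of at least 50 counts required they were 0.24 and 0.27. The genes were chosen with earlier results of these data known, so these shares are descriptions only. The difference between receptors and matrix genes was not tested. In RNA from whole cultures, a change in how many cells express a gene cannot be told apart from a change of RNA per cell.

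The level of a gene bears on how to read these counts. Among all tested genes with a mean under 10 CPM, 18.2% were called higher and 0.735% lower, whereas among those of at least 10 CPM 10.6% were called higher and 17.2% lower. Of the 44 genes, 25 tested genes lay under 10 CPM and 9 of them rose (36.0%), with a median log2 fold change of 0.86 beside 0.30 for all genes at that level. The other 10 tested genes had at least 10 CPM and 4 of them rose, with a median of 0.16 beside -0.048. There were 8 tested genes that did not reach the filter level in both mock libraries, and so needed a JAZF1-SUZ12 library to pass the filter. Of these, ITGA10 and LAMA2 passed with 1 library of each group. Of the 8, ITGA2, LAMC3 and NID2 were among the 13 called.

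**Figure D1:**
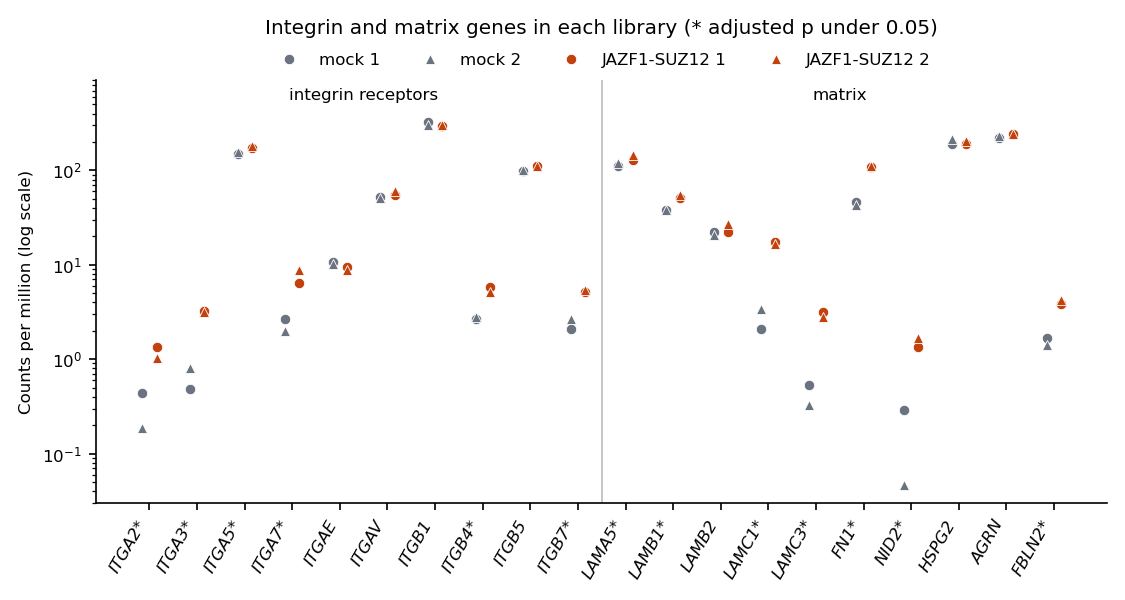
CPM (log axis) of the 20 integrin and matrix genes that were called or had a mean of at least 200 counts, with 1 point per library. Circles are replicate 1 and triangles replicate 2 of mock (grey) and JAZF1-SUZ12 (orange); the genes with the widest gaps, such as LAMC1, LAMC3 and NID2, lie low in mock, whereas ITGB1, HSPG2 and AGRN hold similar levels in all 4 libraries.

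The abundant integrins were examined first. ITGB1, the beta subunit shared by the largest group of integrins, was at 325 and 303 CPM in mock and at 299 and 301 CPM in JAZF1-SUZ12 libraries, a gap between the groups that is small beside the spread of the mock pair. Its log2 fold change of -0.087 had a 95% interval from -0.19 to 0.012 (edgeR, adjusted p = 0.195). ITGA5, the alpha subunit that binds fibronectin with ITGB1, rose from 148 and 155 CPM to 173 and 183 CPM. The groups did not overlap, as for 61.0% of all genes tested. The log2 fold change of ITGA5 was 0.21 ± 0.051 (SE; edgeR, adjusted p = 0.00623), a change of 1.16-fold. Without mock replicate 1 the adjusted p of ITGA5 was 0.0845.

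ITGAV, the alpha subunit of the vitronectin receptors, was at 52.7 and 50.5 CPM in mock and at 54.9 and 60.4 CPM in JAZF1-SUZ12 libraries. It was not called (log2 fold change 0.14, 95% interval 0.0019 to 0.28; edgeR, adjusted p = 0.134). ITGB5, which pairs with ITGAV, was at 98.6 and 101 CPM against 111 and 112 CPM. Its groups did not overlap either, and neither did those of ITGB1 and ITGAV. The adjusted p of ITGB5 was 0.0592 (edgeR, log2 fold change 0.14). With total counts in place of TMM it was called (adjusted p = 0.0270), and likewise with the replicate number as a block. ITGAE, which pairs with ITGB7 and binds E-cadherin, was at 10.8 and 10.3 CPM in mock and lower, at 9.50 and 8.89 CPM, in JAZF1-SUZ12 libraries without being called (edgeR, adjusted p = 0.285).

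Per kilobase of the longest protein-coding transcript, ITGB1 was the highest of the 44 genes, at 83.0 ± 4.14 CPM per kilobase in mock and 79.3 ± 0.267 in JAZF1-SUZ12 (SD, n = 2 each). ITGB1 made up 77.8% and 76.1% of the length-scaled sum of the 7 beta subunits in mock and 73.1% and 72.9% in JAZF1-SUZ12 libraries. ITGA5 made up between 72.9% and 74.7% of the sum of the 16 alpha subunits in every library. Both thus remained the leading subunit of their class among the 44 genes in all 4 libraries. These shares leave out subunits outside the 44. Of those, ITGA2B, an alpha subunit, had a mean of 11.2 CPM per kilobase in mock and 11.6 in JAZF1-SUZ12.

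Larger changes were found among integrins of low level. ITGA3, an alpha subunit of a laminin receptor, was counted 10 and 17 times in mock and 56 and 77 times in JAZF1-SUZ12 libraries. That is 0.489 and 0.798 against 3.24 and 3.15 CPM, a log2 fold change of 2.28 ± 0.38 (SE; edgeR, adjusted p = 4.18e-04). ITGA7, another laminin-binding alpha subunit best known from muscle, rose from 2.64 and 1.97 CPM to 6.37 and 8.89 CPM. This is a log2 fold change of 1.71 ± 0.24 (SE; edgeR, adjusted p = 7.83e-05). In both genes each JAZF1-SUZ12 library lay above each mock library, as in 33.8% of all genes tested.

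ITGB4, the beta subunit of the hemidesmosome, whose only partner is ITGA6, rose from 2.69 and 2.77 CPM to 5.85 and 5.20 CPM. The change was 0.99 ± 0.23 on the log2 scale (SE; edgeR, adjusted p = 0.00475). Its partner ITGA6 was at 0.929 and 0.986 CPM in mock and 1.51 and 1.72 CPM in JAZF1-SUZ12 libraries and was not called (edgeR, log2 fold change 0.73, 95% interval -0.15 to 1.61, adjusted p = 0.223). ITGB7, a beta subunit of leukocyte homing receptors, rose from 2.10 and 2.68 CPM to 5.16 and 5.45 CPM. The rise was 1.13 ± 0.24 on the log2 scale (SE; edgeR, adjusted p = 0.00278). ITGA4, a partner of ITGB7, had at most 2 counts in any library.

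ITGA2, the alpha subunit of a collagen receptor, had 9 and 4 counts in mock and 23 and 25 in JAZF1-SUZ12 libraries. Its log2 fold change was 1.86 ± 0.59 (SE; edgeR, adjusted p = 0.0301). ITGA2 needed a JAZF1-SUZ12 library to pass the filter, and this call was the least stable of the 13. DESeq2 gave an adjusted p of 0.101, and 3 of the 4 fits without 1 library lost it, with log2 fold changes from 1.37 without mock replicate 2 to 2.57 without mock replicate 1.

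The remaining tested receptors were not called. ITGA9 and ITGAM were lower in JAZF1-SUZ12 libraries, with log2 fold changes of -0.83 and -0.80 (edgeR, adjusted p = 0.250 and 0.158). ITGAM encodes an alpha subunit of leukocyte integrins, and its counts were 37 and 38 in mock and 16 and 28 in JAZF1-SUZ12 libraries. ITGA8, ITGAL, ITGA10, ITGAX, ITGB2 and ITGA11 had log2 fold changes between 0.20 and 1.33, with intervals that all include 0. ITGA1, ITGA4, ITGB6 and ITGB8 did not pass the filter and had at most 9 counts in any library.

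Both laminin gamma chains among the 44 genes were low in mock and rose. LAMC1, the gamma chain of most laminins, was counted 43 and 72 times in mock and 298 and 404 times in JAZF1-SUZ12 libraries. Its levels were 2.10 and 3.38 against 17.3 and 16.5 CPM. The log2 fold change of 2.59 ± 0.19 is 6.04-fold (SE; edgeR, adjusted p = 8.75e-08). Both JAZF1-SUZ12 libraries lay far above both mock libraries, and without each library in turn the log2 fold change was from 2.29 to 2.97.

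LAMC3, a gamma chain with a narrower tissue range, had 11 and 7 counts in mock and 54 and 69 in JAZF1-SUZ12 libraries. That is 0.538 and 0.329 against 3.13 and 2.83 CPM, a log2 fold change of 2.74 ± 0.42 (SE; edgeR, adjusted p = 1.92e-04). LAMC3 needed a JAZF1-SUZ12 library to pass the filter, so it was tested only because of the group where it is high.

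LAMB1, the beta chain that joins LAMC1 in many laminins, rose from 37.7 and 38.5 CPM to 50.7 and 54.9 CPM. That was 0.45 ± 0.068 on the log2 scale (SE; edgeR, adjusted p = 1.64e-04). LAMA5, the widespread alpha chain of adult basement membranes, rose from 111 and 120 CPM to 128 and 147 CPM. Its log2 fold change was 0.23 ± 0.062 (SE; edgeR, adjusted p = 0.0114), and the call was lost without JAZF1-SUZ12 replicate 2 (adjusted p = 0.140) and without mock replicate 1 (adjusted p = 0.112). LAMB2 overlapped between the groups, at 22.5 and 20.7 CPM in mock and 22.1 and 27.2 CPM in JAZF1-SUZ12 libraries (edgeR, adjusted p = 0.230). LAMB3, LAMA1, LAMA2 and LAMA4 were not called, at log2 fold changes between -0.19 and 0.92, and LAMA3 had at most 4 counts.

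Because a laminin takes 1 chain of each class, the chains of the 3 classes among the 44 genes were set side by side per kilobase of transcript. In mock the alpha chains summed to 10.3 and 11.1 CPM per kilobase, and the beta chains to 11.1 and 11.0. LAMC1 and LAMC3 together summed to 0.354 and 0.482 CPM per kilobase in mock and to 2.70 and 2.56 in JAZF1-SUZ12 libraries. The ratio of this gamma sum to the beta chains was 0.0319 and 0.0440 in mock and 0.205 and 0.167 in JAZF1-SUZ12 libraries. The ratio of beta to alpha chains was between 0.990 and 1.14 in every library. These gamma chains thus remained the lowest class in both groups, and the gap was narrower in the JAZF1-SUZ12 libraries. The ratios were not tested, since with 2 libraries against 2 an exact permutation test cannot give a two-sided p under 0.333.

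**Figure D2:**
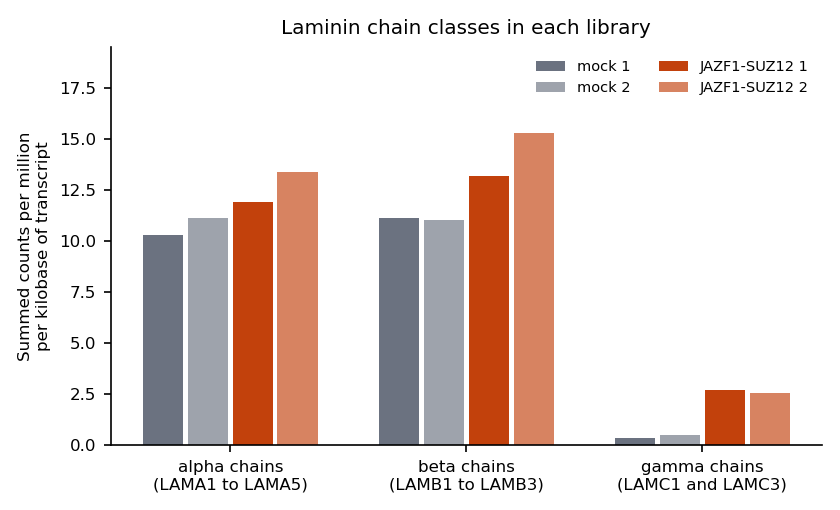
Summed CPM per kilobase of the longest protein-coding transcript for the laminin alpha, beta and gamma chains (gamma: LAMC1 and LAMC3), with 1 bar per library on an axis from 0. The gamma bars are 0.354 and 0.482 in mock (grey) and 2.70 and 2.56 in JAZF1-SUZ12 libraries (orange), below the alpha and beta bars in every library.

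Of the other basement membrane genes, NID2, a nidogen that binds laminin and collagen IV, had 6 and 1 counts in mock and 23 and 41 in JAZF1-SUZ12 libraries. It needed a JAZF1-SUZ12 library to pass the filter. The fitted log2 fold change was 3.10 ± 0.66 (SE; edgeR, adjusted p = 0.00256). The size rests on few mock counts: the log2 fold change was 4.81 with mock replicate 1 dropped, and 2.31 with mock replicate 2 dropped. The pooled ratio was 9.16, with an exact 95% interval from 4.20 to 23.7 that covers counting error only. NID1 had at most 2 counts in any library.

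The heparan sulfate proteoglycans of the basement membrane were abundant and were not called. HSPG2 was at 191 and 215 CPM in mock and 192 and 204 CPM in JAZF1-SUZ12 libraries, so the groups overlapped. The log2 fold change was -0.057 with a 95% interval from -0.18 to 0.063 (edgeR, adjusted p = 0.511). AGRN was at 218 and 232 CPM in mock and 241 and 244 CPM in JAZF1-SUZ12 libraries (log2 fold change 0.086, 95% interval -0.014 to 0.19; edgeR, adjusted p = 0.206).

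FN1 had the smallest p-value of the 44 genes and was the only one with a mean of at least 10 CPM that rose at least 2-fold. It had 944 and 917 counts in mock and 1861 and 2682 in JAZF1-SUZ12 libraries, or 46.2 and 43.1 against 108 and 110 CPM. The log2 fold change was 1.27 ± 0.060 (SE; edgeR, adjusted p = 1.15e-09), a rise of 2.40-fold, and it lay between 1.21 and 1.31 without each library in turn. Among all tested genes of at least 10 CPM, 0.929% were called higher and at least 2-fold. Per kilobase, FN1 went from 5.01 ± 0.247 to 12.2 ± 0.159 CPM (SD, n = 2 each), from below LAMA5 (10.1 ± 0.526) to about its level (12.1 ± 1.14).

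Of the fibulins, which bind matrix proteins such as fibronectin, 1 of the 2 among the 44 genes was called. FBLN2 rose from 1.66 and 1.41 CPM to 3.82 and 4.22 CPM, a log2 fold change of 1.37 ± 0.29 (SE; edgeR, adjusted p = 0.00241). FBLN1 was at 1.61 and 1.55 CPM in mock and 2.38 and 3.32 CPM in JAZF1-SUZ12 libraries, and its adjusted p was 0.0704 (edgeR, log2 fold change 0.84). FBN1, which builds microfibrils, was not called (edgeR, adjusted p = 0.471). TNC and VTN did not pass the filter, at most 15 counts each in any library, and FBN2 had 0 counts in all 4 libraries.

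**Figure D3:**
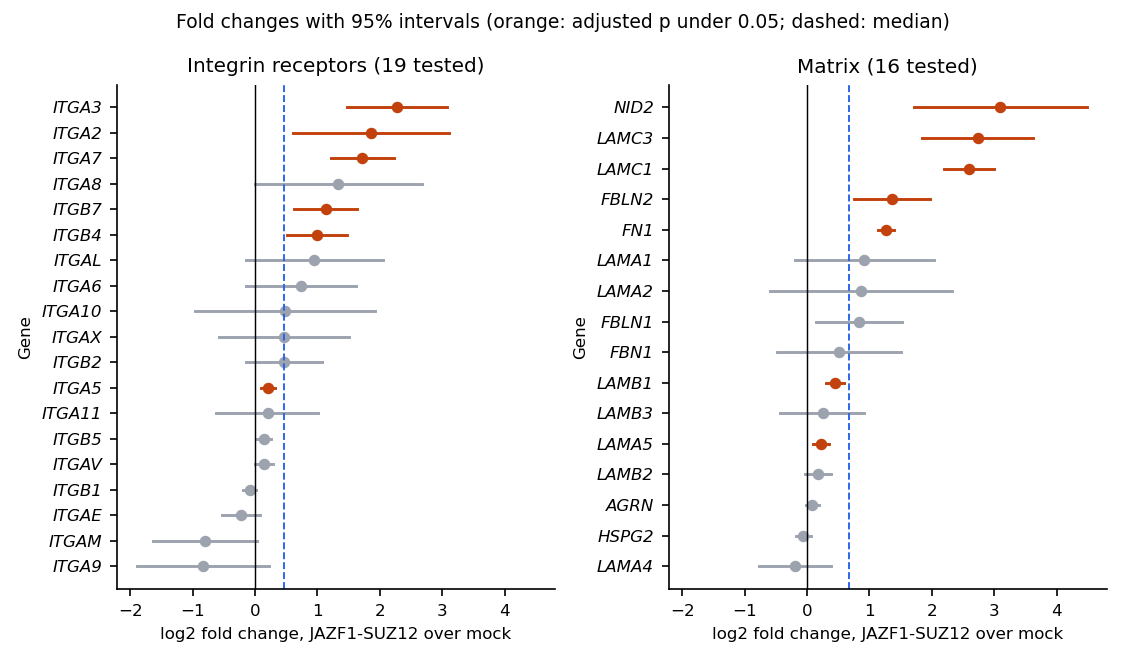
The log2 fold change of JAZF1-SUZ12 over mock with its 95% interval for the 19 tested integrin receptors (left) and the 16 tested matrix genes (right), sorted by size. Orange genes have an adjusted p under 0.05 (edgeR), grey genes do not, and dashed lines mark the medians of 0.47 and 0.67; all 13 called genes lie above 0.

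In CPM, the groups did not overlap for 28 of the 35 tested genes, 24 of them higher in JAZF1-SUZ12 libraries. With 2 libraries per group this is common, and 61.0% of all genes tested did not overlap, with 33.8% of all genes higher. The 13 called genes lie on 10 chromosomes, with ITGA5, ITGA7 and ITGB7 on chromosome 12 and ITGA3 and ITGB4 on chromosome 17. Of these, FN1 (ENSG00000115414) spans bases 215360440 to 215436172 of chromosome 2 on the minus strand, and LAMC1 (ENSG00000135862) bases 183023460 to 183145592 of chromosome 1 on the plus strand (GENCODE 29, GRCh38). LAMC3 (ENSG00000050555) spans bases 131009082 to 131094473 of chromosome 9 on the plus strand, and NID2 (ENSG00000087303) bases 52004803 to 52069228 of chromosome 14 on the minus strand.

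Exons of 6 of the 13 called genes overlap a gene on the opposite strand, and no source says that strand was used in counting. NID2 overlaps RTRAF, which was at 67.3 and 62.7 CPM in mock and 62.6 and 61.3 CPM in JAZF1-SUZ12 libraries. LAMB1 overlaps DLD (log2 fold change -0.030), ITGB7 overlaps ZNF740 (0.070), and LAMA5 overlaps ADRM1, which fell by 0.21 on the log2 scale (edgeR, adjusted p = 0.0107). ITGA7 overlaps BLOC1S1 (0.11) and METTL7B, which rose with it, from 0.245 and 0.423 CPM to 1.68 and 1.51 CPM (edgeR, adjusted p = 0.00593). Reads shared between ITGA7 and METTL7B cannot be told apart. ITGA5 overlaps AC079313.1, and LAMA5, LAMB1 and ITGA7 each overlap a further gene on the opposite strand. No values of these genes are given here. FN1, LAMC1, LAMC3, ITGA3, ITGA2, ITGB4 and FBLN2 have no such overlap in GENCODE 29.

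The promoter windows of the other genes were read in the same way. RefSeq windows were matched for 34 of the 44 genes, and the 10 others are ITGA3, ITGA7, ITGA9, ITGAL, ITGAX, ITGB2, ITGB4, LAMA1, LAMC3 and AGRN. The 10 windows of 9 called genes had a median of 31 CG dinucleotides and a range from 4 in ITGB7 to 43 in FBLN2. The 23 windows of 16 genes that were tested and not called had a median of 11, with a range from 1 to 44, and all windows had a median of 14. Several genes contribute more than 1 window, most of them not called, so these medians do not weigh each gene equally. Among genes not called, LAMB3 held 3, 11 and 10, and ITGB5 held 32, 27 and 11. ITGAV held 23 and 1, ITGB1 39 and 4, and ITGA6 11 and 38. Of the called genes only FBLN2 had more than 1 window, at 43 and 12. The 9 windows of genes not tested had a median of 19. All these counts carry no test. HSPG2, which was not called, had the most, 44.

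Motifs were searched on both strands. The GC box GGGCGG, the Sp1 motif, was found in 8 of the 10 windows of called genes, in 14 of the 23 windows of genes not called, and in 45% of all windows. FN1 held 6 matches of it, some of which share bases, LAMC1 held 3 and NID2 held 4. The cyclic AMP response element TGACGTCA was found in the FN1 window, 183 bases before the start, and in no other window of the 44 genes, against 1.85% of all windows. The TATA box TATAAA, the GATA site AGATAA and the AP-1 site TGANTCA were found in 0, 0 and 1 of the 10 windows of called genes, the last in ITGA5. Among all windows the shares were 11.5%, 10.3% and 7.71%. A match describes the letters only and is not evidence of binding.

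The neighbouring parts of the adhesion pathway were read from 5 lists of genes outside the 44. The shares over all genes depend on level here too, with 18.2% called higher and 0.735% lower under 10 CPM. Of 33 genes of the intracellular adhesion complex 28 were tested, 7 rose and 3 fell, beside 13.3% higher and 11.4% lower among all genes tested. Its median log2 fold change was -0.013. TNS1, a tensin that ties integrins to actin, rose from 15.8 and 17.1 CPM to 38.0 and 40.1 CPM (log2 fold change 1.23 ± 0.085 SE; edgeR, adjusted p = 6.49e-08). FERMT2, the kindlin of adherent cells, rose from 2.01 and 1.93 CPM to 8.52 and 6.84 CPM (log2 fold change 1.94 ± 0.23 SE; edgeR, adjusted p = 1.67e-05). FERMT3, the kindlin of blood cells, fell by 0.18 on the log2 scale, from 331 and 335 CPM to 305 and 294 CPM (edgeR, adjusted p = 0.00919). Without JAZF1-SUZ12 replicate 2 this call of FERMT3 was lost (adjusted p = 0.0524). TLN2, the second talin, rose (edgeR, log2 fold change 1.15, adjusted p = 0.00217). The talin of higher level, TLN1, was not called (edgeR, adjusted p = 0.743).

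Of 17 other matrix receptors and their partners, all tested, 8 rose and 1 fell, beside the same 13.3% and 11.4% of all genes, and the median log2 fold change was 0.12. CD44, the hyaluronan receptor, rose from 18.0 and 17.8 CPM to 39.7 and 39.9 CPM (log2 fold change 1.13 ± 0.081 SE; edgeR, adjusted p = 7.74e-08). SDC1, a syndecan, rose from 1.52 and 0.751 CPM to 8.98 and 8.11 CPM (log2 fold change 2.89 ± 0.28 SE; edgeR, adjusted p = 1.60e-06). CD9, a tetraspanin that binds integrins, and GPC1, a glypican, rose by log2 fold changes of 1.53 and 1.54 (edgeR, adjusted p = 3.48e-05 and 6.58e-05). The platelet integrin genes ITGA2B and ITGB3, in a list of further genes of these families and integrin partners of which 0 of 6 tested were called, had log2 fold changes of 0.022 and 0.0022. At an unadjusted p under 0.05 edgeR gave 0 of these 6 as well, and DESeq2 called 0.

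Of 33 other matrix glycoproteins 20 were tested, 8 rose and 1 fell, against 13.3% and 11.4% of all genes, with a median log2 fold change of 0.46. SPARC, which binds collagen, rose from 14.5 and 13.8 CPM to 35.6 and 35.3 CPM (2.47-fold; edgeR, adjusted p = 5.50e-08). EMILIN2 and TNXB rose by log2 fold changes of 1.49 and 0.43 (edgeR, adjusted p = 2.11e-05 and 7.71e-05). THBS1, thrombospondin, fell from 15.0 and 14.0 CPM to 5.56 and 7.90 CPM (edgeR, log2 fold change -1.11, adjusted p = 1.01e-04). Of 25 matrix enzymes and inhibitors 23 were tested, 8 rose and 1 fell (all genes: 13.3% and 11.4%), with a median log2 fold change of 0.19. TIMP3, an inhibitor of metalloproteinases that binds matrix, rose (edgeR, log2 fold change 2.14, adjusted p = 1.94e-07), and TIMP1 fell by 0.31 (edgeR, adjusted p = 2.87e-04). TIMP2 had 3 counts in each mock library and 58 and 101 in the JAZF1-SUZ12 libraries, a pooled ratio of 26.5 with an exact 95% interval from 11.9 to 73.4. LOXL2, a lysyl oxidase, rose (edgeR, log2 fold change 1.64, adjusted p = 1.43e-04). Some genes that rose in these lists did not reach the filter level in both mock libraries. They were 2 of 7 in the intracellular adhesion complex and 1 of 8 among the other matrix receptors. Among the other matrix glycoproteins they were 3 of 8, and among the enzymes and inhibitors 2 of 8.

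The authors' deposited table gave fewer calls for the same genes. There, 38 of the 44 genes have an adjusted p, and 3 of them are higher at 0.05 in the authors' deposited table, LAMA5, LAMB1 and LAMC1. The background in the authors' deposited table was 4.93% of 15895 genes called higher and 3.57% called lower. Of the 20 receptors with an adjusted p there, 0 are called. All 13 genes called from the counts are above 0 there, and 12 of the 13 have a smaller log2 fold change than from the counts, LAMA5 being the exception. Among the tested genes not called from the counts, LAMA2, LAMA4, LAMB2, FBN1, HSPG2, ITGAV and ITGAX have the opposite sign there. LAMA4, for example, is at 0.72 in the authors' deposited table and at -0.19 from the counts. The log2 fold change of LAMC1 is 1.37 ± 0.38 (SE) in the authors' deposited table (adjusted p = 0.00649), against 2.59 from the counts. That of FN1 is 1.09 ± 0.41 (SE) in the authors' deposited table (adjusted p = 0.0741). DESeq2 run on the deposited counts gave FN1 a log2 fold change of 1.26 (adjusted p = 3.33e-49) and called 12 of the 13 genes. ITGA7 and ITGB7, at 1.71 and 1.13 from the counts, are at 0.74 and 0.40 in the authors' deposited table (adjusted p = 0.357 and 0.762). The cause of the difference between the deposited tables was not tested.

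**Figure D4:**
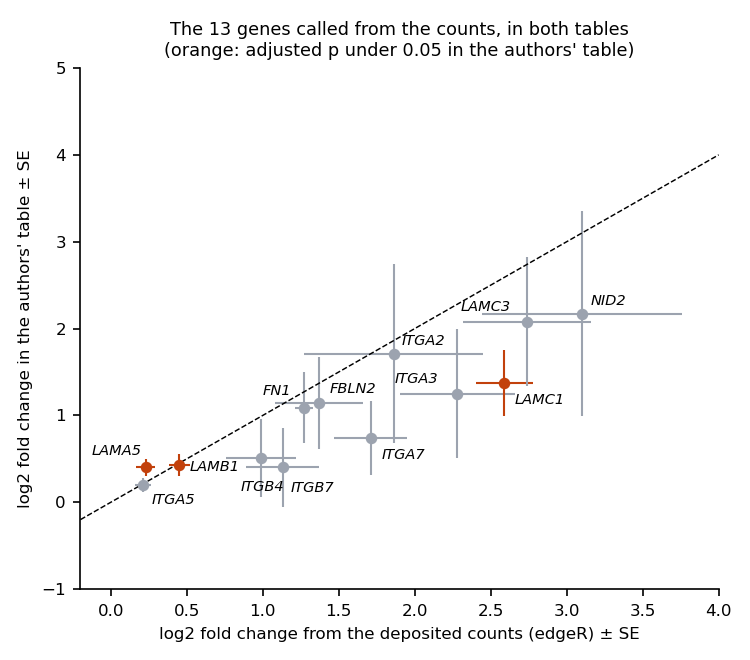
The log2 fold change of the 13 called genes from the deposited counts (edgeR, horizontal axis) against that in the authors' deposited table (vertical axis), each with its standard error, and a dashed line of equal values. All but LAMA5 lie below the line, and LAMA5, LAMB1 and LAMC1 (orange) have an adjusted p under 0.05 in the authors' deposited table.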

How the data were processed

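Poly(A)-selected, directional RNA-seq libraries of K562 cells were made, 2 per group, per the labels' protocols. The authors deposited estimated counts per gene, not normalized. The submitters' processing notes name kallisto 0.46.2, DESeq2 1.30.1, fastp 0.20.1 and hg38, with no role or order, and the annotation is not given in the sources used here. The authors' deposited table holds a mean normalized signal, a log2 fold change with its standard error, a score (fold change over standard error) and p-values before and after adjustment, per the file headers.

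Estimated counts were rounded. Genes were kept with filterByExpr, scaled with TMM and tested two-sided with edgeR 4.0.16 (R 4.3.3), the group being its sole term, with Benjamini-Hochberg adjustment over 14750 genes. Standard errors were taken as the absolute log2 fold change over the root of the F statistic. CPM use the library totals without TMM. The test was run on simulated data first. Alternatives were DESeq2 1.42.0, DESeq2 size factors, total counts, other filters, a stricter threshold, the replicate number as a block and leaving out each library. Intervals cover counting error only where counts are pooled, and the library totals of 17260936 to 24423028 set that precision. Replicates differed by more than sampling noise (chi-square per degree of freedom 3.86 and 3.61).

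The genes and lists were chosen with earlier results of these data known. Values in every library are given for called genes and those with a mean of at least 200 counts, and up to 4 called genes are named per list. Genes named outside this rule, such as ITGA6, ITGA9, ITGAM, FBLN1, TLN1 and the overlapping genes, were named after their values were seen. The result of 1 gene of the lists is not reported here.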

Additional observations from a re-analysis of the deposited data

How the results depend on the processing

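The 13 called genes kept their sign under every alternative run. Of the 22 not called, 4 changed sign in a fit without 1 library: ITGA10 (-0.093 without mock replicate 1), LAMA2 (-0.18 without JAZF1-SUZ12 replicate 1), LAMB3 (-0.40 without JAZF1-SUZ12 replicate 2) and HSPG2 (0.021 without mock replicate 2). The count of called receptors was 6 and lay between 5 and 7, and that of called matrix genes was 7 and lay between 5 and 8, over all alternatives. None of the 44 genes was called lower in any of them. At the 0.05 threshold, the calls that moved among genes with a value in the fit were ITGA2, ITGA5, LAMA5, LAMB2, ITGB5, FBLN1 and TNC. LAMB2 was called without JAZF1-SUZ12 replicate 1 (adjusted p = 0.0440) and FBLN1 with no filter (adjusted p = 0.0482). TNC passed the filter and was called higher without mock replicate 1 (adjusted p = 0.0287), where the remaining mock library has 0 counts. Without 1 library a group has a single sample, which is assumed to vary like the other group.

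With a mean of at least 50 counts required, which leaves 19 of the 44 genes, the median log2 fold change was 0.24 for receptors and 0.27 for matrix genes. Leaving out each library in turn gave medians from 0.29 to 0.64 for receptors and from 0.46 to 0.89 for matrix genes. Over all genes, 1955 were called higher and 1688 lower. An adjusted p under 0.01 gave 1255 and 790 by construction. DESeq2 gave 1356 higher and 1051 lower, and the cause was not tested. Leaving out each library gave from 1070 (without JAZF1-SUZ12 replicate 2) to 1941 lower. With total counts the split was 2069 higher and 1351 lower.

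Same-numbered libraries did not deviate together (r = 0.0277 across 11826 genes). Adding the replicate block to the fit called 2074 genes higher and 1987 lower, among them 7 receptors and 7 matrix genes that were higher, ITGB5 being the receptor gained (adjusted p = 0.0491).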
